A study of Mus musculus with 12 samples.

Results

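The 10 genes Mdm2, Ccng1, Trp53inp1, Bax, Bbc3, Pmaip1, Sesn1, Sesn2, Phlda3 and Perp are textbook transcriptional targets of the tumour suppressor p53, and their RNA was followed in the esophagus and the liver of mice with and without an inducible Nanog transgene. They were chosen by symbol: a probe belonged to a gene where its RefSeq accession mapped to that symbol. All 10 genes were found, with 15 probes among 41174 on the array and among 16535 named genes. Another 17800 probes matched no gene and were each kept as a separate entry. Counts and shares of all genes tested, given below, include those of them that could be tested. None of the 10 passed the test between mice with and without the transgene in either organ. Between the organs 5 of 10 were higher in the esophagus of control mice (27.7% of all genes tested were): Phlda3, Perp, Ccng1, Sesn1 and Pmaip1. Another 3, Sesn2, Bbc3 and Trp53inp1, were lower there than in the liver (34.5% of all genes were). For Ccng1 and Trp53inp1 the call holds on 1 of 2 probes each. Those of Pmaip1 and Trp53inp1 are lost under some of the alternatives given below.

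p53 is a transcription factor that DNA damage and other stresses stabilise, and that its own target Mdm2, a ubiquitin ligase, keeps low. Its targets stop the cell cycle, open the apoptotic pore of mitochondria, slow growth signalling and repair damage. In stratified epithelia such as that of the esophagus the related factor p63 (Trp63) also drives some of these genes, and in the liver several of them respond to feeding and nutrient stress as well.

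Total RNA came from 6 male mice of mixed 129Sv/C57BL6 background and about 8 months of age, 1 esophagus and 1 liver from each, on 12 arrays read in 1 colour. The 3 TG mice carried Col1a1tetO-Nanog/+;Rosa26rtTA/+, in which doxycycline-bound rtTA switches on a Nanog cassette placed at the Col1a1 locus. The 3 CTR mice were Col1a1+/+;Rosa26rtTA/+ and so carried rtTA without the cassette. TG and CTR mice alike drank 0.2 mg/ml doxycycline in water with 7.5% sucrose for 48 h. The groups are thus esophagus TG, esophagus CTR, liver TG and liver CTR, with 3 mice each, and the organs of a mouse are a pair. The rtTA is expressed from Rosa26, a locus that is not specific to a cell type. Which cells expressed the transgene was not tested. Per the labels' protocols the esophagi were extracted with reagents meant for fibrous tissue and the livers with Trizol followed by a clean-up column. The organ and the way its RNA was extracted therefore cannot be told apart.

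Between 56.4% (liver CTR replicate 3) and 81.8% (liver TG replicate 3) of probes passed the scanner's test for a signal well above background. The precision of a difference depends on how many arrays there were and on the spread between them. The probe for Nanog passed the background test on 0 of 12 arrays; the sources used here do not place it inside or outside the transgene, so it does not check the genotypes. Of 9 markers of stratified epithelium, all 9 were higher in the esophagus, and of 9 hepatocyte markers measured all 9 were lower there, in CTR and in TG mice. Markers of striated muscle (7 of 7), smooth muscle (6 of 6) and fibroblasts (5 of 5) were also higher in the esophagus in both genotypes, so that organ is a mixture here. Levels below are log2 signals minus the 75th percentile of the same array, called log2 levels, so 0 is the brightness of that percentile and levels of different probes are not set against each other. A gene passed where limma's adjusted p over all genes tested was under 0.05.

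The promoters of the members are shown first, because a p53 site is 2 half-sites of 10 bases and these letters can be searched for. RefSeq windows of GRCm38.p6, 250 bases before to 50 bases after a start site, were searched for 7 of the 10 members, with 10 windows. Trp53inp1, Perp and Pmaip1 are not shown and are left out of the members' counts below. The half-site of p53, whose pattern reads the same on both strands, was in 4 of the 10 windows and in 4 of the 7 members, while 8.36% of the 32851 windows in the table hold it. It began at base -186 of Mdm2 (GAACTTGCCT), -185 of Ccng1 (GGGCAAGCCT), -201 of Bax (AGGCAAGCTT) and -173 of the second start site of Sesn1 (AAGCTTGTTT), counted from the start site. No window held 2 half-sites 0 to 1 base apart, which 0.00913% of all windows do. Those 4 windows follow, with that of Phlda3, the member that differed most between the organs and whose window held none. Each is printed 5′ to 3′ on the strand of the gene, with the half-site in capitals.
Mdm2, chr10:117710709-117711008, minus strand: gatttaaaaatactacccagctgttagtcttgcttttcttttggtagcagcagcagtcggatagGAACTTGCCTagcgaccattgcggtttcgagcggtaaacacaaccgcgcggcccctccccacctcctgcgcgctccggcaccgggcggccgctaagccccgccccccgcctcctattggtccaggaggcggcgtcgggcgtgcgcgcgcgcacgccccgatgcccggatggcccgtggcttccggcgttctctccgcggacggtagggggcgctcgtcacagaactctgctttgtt
Ccng1, chr11:40755237-40755536, minus strand: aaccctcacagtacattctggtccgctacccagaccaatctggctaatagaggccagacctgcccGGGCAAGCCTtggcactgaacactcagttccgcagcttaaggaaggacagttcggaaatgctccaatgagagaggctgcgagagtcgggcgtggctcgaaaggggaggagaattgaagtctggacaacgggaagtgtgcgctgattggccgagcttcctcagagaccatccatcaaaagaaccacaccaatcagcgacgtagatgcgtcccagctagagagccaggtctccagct
Bax, chr7:45466849-45467148, minus strand: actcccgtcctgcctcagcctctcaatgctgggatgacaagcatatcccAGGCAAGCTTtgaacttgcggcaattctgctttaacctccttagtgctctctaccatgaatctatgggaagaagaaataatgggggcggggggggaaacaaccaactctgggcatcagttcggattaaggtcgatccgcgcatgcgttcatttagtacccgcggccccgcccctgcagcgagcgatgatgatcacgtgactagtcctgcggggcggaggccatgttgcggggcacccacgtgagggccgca
Sesn1, second start site, chr10:41887189-41887488, plus strand: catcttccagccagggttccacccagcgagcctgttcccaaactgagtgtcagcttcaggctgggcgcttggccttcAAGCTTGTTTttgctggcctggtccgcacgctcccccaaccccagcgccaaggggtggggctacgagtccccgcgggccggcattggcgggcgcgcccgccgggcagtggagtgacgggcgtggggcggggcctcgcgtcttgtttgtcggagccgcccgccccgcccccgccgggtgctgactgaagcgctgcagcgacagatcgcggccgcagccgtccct
Phlda3, chr1:135765835-135766134, plus strand: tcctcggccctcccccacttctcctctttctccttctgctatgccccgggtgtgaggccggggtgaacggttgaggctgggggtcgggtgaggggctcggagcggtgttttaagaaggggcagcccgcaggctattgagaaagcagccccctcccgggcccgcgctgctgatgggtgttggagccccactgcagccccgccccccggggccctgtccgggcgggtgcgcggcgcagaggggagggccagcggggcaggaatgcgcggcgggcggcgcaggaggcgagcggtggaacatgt
The CCAAT box, searched on both strands, was in 6 of the members' 10 windows (5 of 7 members) and 37.4% of all windows. The GC box GGGCGG, also on both strands, was in 9 of 10 windows (6 of 7 members) and 35.7% of all windows. The windows of start sites 2 and 3 of Bbc3 overlap, so GC boxes in their shared stretch count in both. TATAAA on both strands was in 0 of 10 windows and 13.6% of all windows. CATG, the core of many p53 half-sites and its own reverse complement, was in 3 of 10 windows (3 of 7 members) and 61.1% of all windows, and could overlap a half-site by its pattern. A match is a run of letters and not a measured binding site; the known p53 sites of Mdm2, for example, lie in its first intron, outside the window.

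With the transgene, no member passed in the esophagus (0 of 10, where 0% of the 23208 genes tested passed) or in the liver (0 of 10, where 0% of 21247 passed). At an unadjusted p under 0.05 the esophagus had 894 genes and the liver 1624, and 0 of the 10 members were among them in either organ. For 2 members the TG esophagi had the higher mean and for 8 the lower one, with a median difference of -0.09 on the log2 scale against -0.00 over all genes tested. In the liver 8 were higher and 2 lower, with a median of 0.12 against 0.13 over all genes, a value that was 0.02 over all genes after quantile normalization. All 3 TG esophagi lay above all 3 CTR esophagi for 1 member, Bax (6.32% of genes did so), and below for 1 member, Sesn1 (6.13% of genes). In the liver all TG arrays lay above all CTR arrays for Sesn1 alone (8.42% of genes) and below for 0 members (2.87% of genes). These counts are near the shares of all genes.

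**Figure D1:**
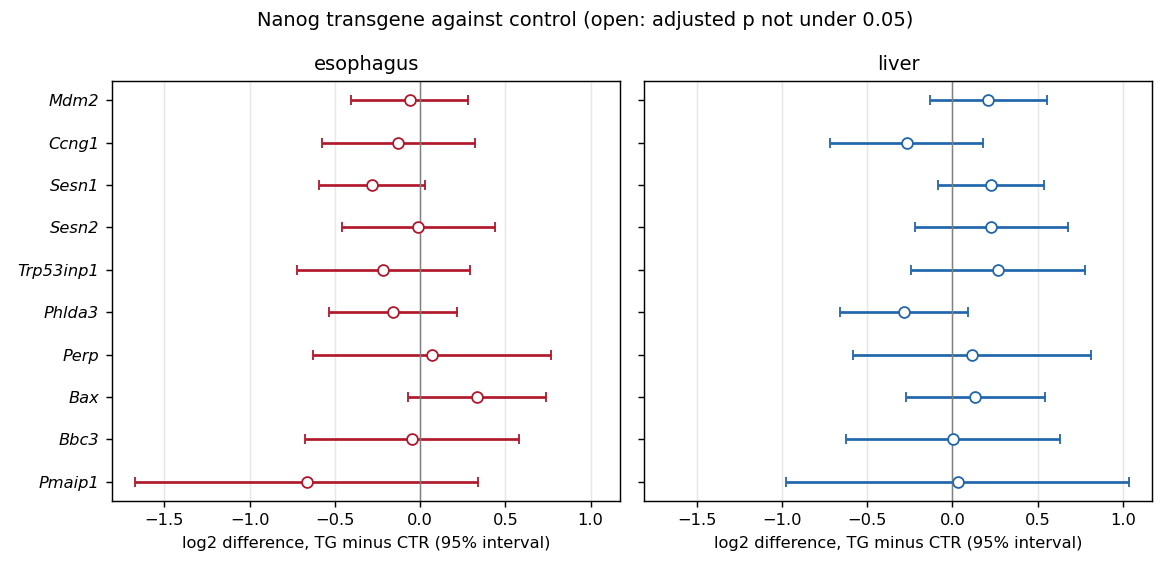
Difference between TG and CTR mice for each of the 10 genes in the esophagus (left) and the liver (right), on the log2 scale, with 95% intervals from the limma fit and 3 mice per group. All 20 intervals include 0 and all symbols are open, since no adjusted p was under 0.05; the widest intervals are those of Pmaip1.

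Markers of other cell types in the esophagi are given by genotype, so that the members can be read beside them. Airway markers had summed scaled signals (the 75th percentile of an array being 1) of 0.924 to 32.7 in TG esophagi and 29.0 to 253 in CTR esophagi, and 3 to 5 of 5 were detected in TG against 5 of 5 in CTR. Fat markers summed to 31.0 to 118 in TG and 91.3 to 148 in CTR esophagi. The highest TG sums of airway and of fat markers, 32.7 and 118, were both those of esophagus TG replicate 2 and lay within the CTR ranges. Leukocyte markers summed to 9.30 to 21.1 in TG and 19.3 to 24.4 in CTR esophagi. Red blood cell markers summed to 44.1 to 65.7 in TG and 89.3 to 149 in CTR esophagi. Heart markers summed to 236 to 253 in TG and 238 to 369 in CTR esophagi, with 5 of 5 detected in both. Their median log2 level was 0.88 to 1.29 in TG and 1.78 to 5.51 in CTR esophagi, and 4 of 5 had an unadjusted p under 0.05 (median TG minus CTR difference -2.24, smallest adjusted p = 0.251 by limma). Hepatocyte markers summed to 1.06 to 2.81 in TG and 2.17 to 3.39 in CTR esophagi, and 8 of 8 tested had the lower mean in TG (median difference -0.84). Stratified epithelium markers summed to 490 to 677 in TG and 508 to 700 in CTR esophagi, with 9 of 9 detected in both. No marker passed between genotypes, and their part in the members' values was not tested. In these bulk samples fewer cells of a type and less RNA per cell cannot be told apart.

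Mdm2 encodes the ubiquitin ligase that marks p53 for destruction, and its level overlapped in every pair of groups. It had log2 levels of 0.75, 0.86 and 0.85 in TG esophagi, against 0.83, 0.85 and 0.96 in CTR esophagi. The TG livers had levels of 1.12, 0.90 and 0.76, against 0.85, 0.52 and 0.79 in CTR livers. The 12 arrays spanned 0.52 to 1.12. The difference between TG and CTR was -0.06 in the esophagus (SE 0.16, 95% interval -0.41 to 0.28) and 0.21 in the liver (SE 0.16, -0.13 to 0.55). Between the organs, 91.0% of all genes had a larger absolute difference than Mdm2 in CTR mice and 94.2% in TG mice. The esophagus minus liver difference was -0.11 in TG mice (adjusted p = 0.546 by limma) and 0.16 in CTR mice (adjusted p = 0.390). A second, dimmer probe of Mdm2 was higher in the esophagus by 0.63 in TG mice (adjusted p = 0.114) and by 0.92 in CTR mice, where it passed (adjusted p = 0.0290), so the overlap of the organs is that of the brighter probe.

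**Figure D2:**
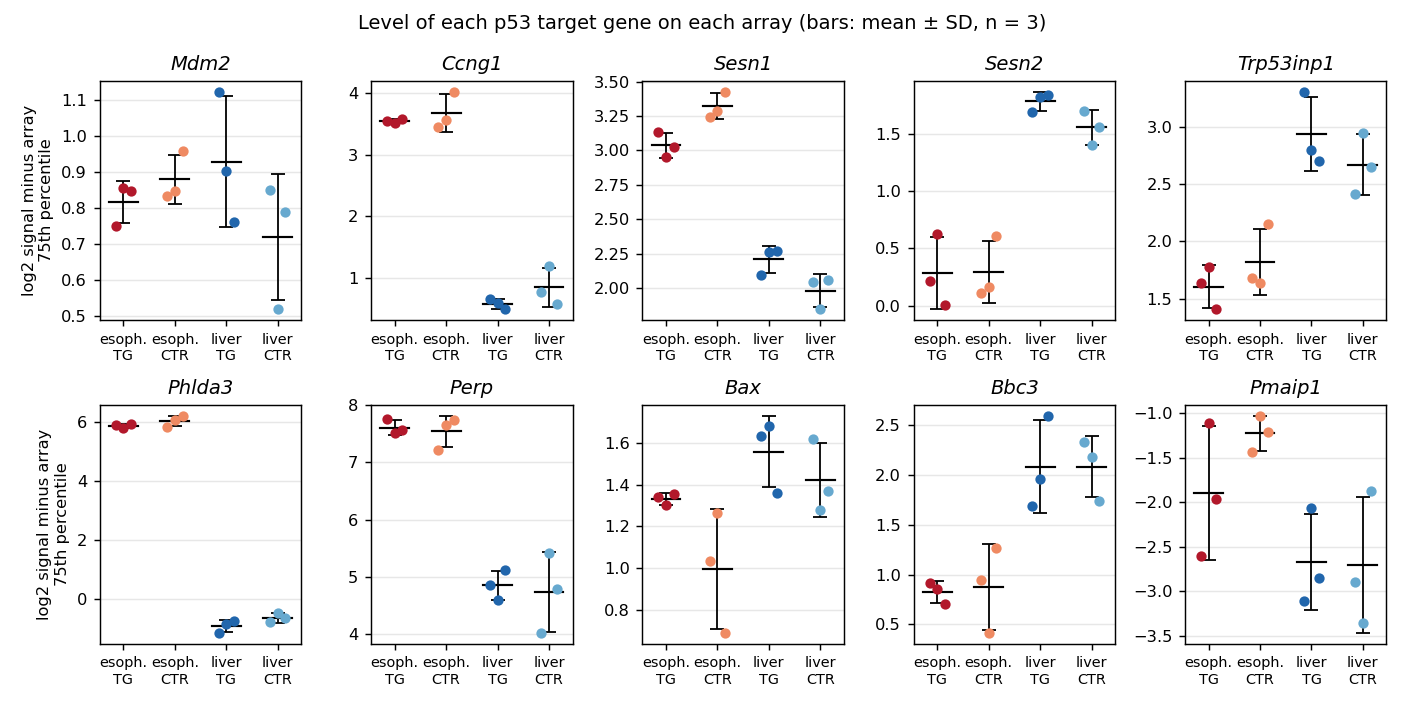
Log2 level of each of the 10 genes on each of the 12 arrays (vertical axis: log2 signal minus the 75th percentile of the array, with its own range in each panel), by group, with the mean and SD of 3 mice. Phlda3, Perp, Ccng1 and Sesn1 are separated by organ with the esophagus above, Sesn2, Bbc3 and Trp53inp1 with the liver above, and TG and CTR arrays of an organ mostly overlap.

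Ccng1 encodes cyclin G1, which recruits a phosphatase to Mdm2. It had log2 levels of 3.54, 3.52 and 3.58 in TG esophagi, against 3.44, 3.56 and 4.02 in CTR esophagi. In TG livers the levels were 0.65, 0.58 and 0.49, against 0.76, 1.19 and 0.57 in CTR livers. Every esophagus lay above every liver on this probe and the genotypes overlapped. TG differed from CTR by -0.13 in the esophagus (SE 0.20, 95% interval -0.58 to 0.32) and by -0.27 in the liver (SE 0.20, -0.72 to 0.18). The esophagus was 7.86-fold higher than the liver in TG mice (log2 difference 2.98, SE 0.20, limma adjusted p = 5.28e-07) and 7.13-fold higher in CTR mice (2.83, SE 0.20, adjusted p = 7.34e-07). The second probe of Ccng1 went against this: its levels were 0.99, 1.09 and 0.97 in TG esophagi against 1.11, 1.43 and 1.69 in TG livers, and 0.75, 1.24 and 1.32 in CTR esophagi against 1.17, 1.90 and 1.24 in CTR livers. Its difference was -0.39 in TG mice (adjusted p = 0.182) and -0.33 in CTR mice (adjusted p = 0.257). The direction for Ccng1 between organs therefore belongs to the brighter probe, and the cause of the disagreement was not tested.

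**Figure D3:**
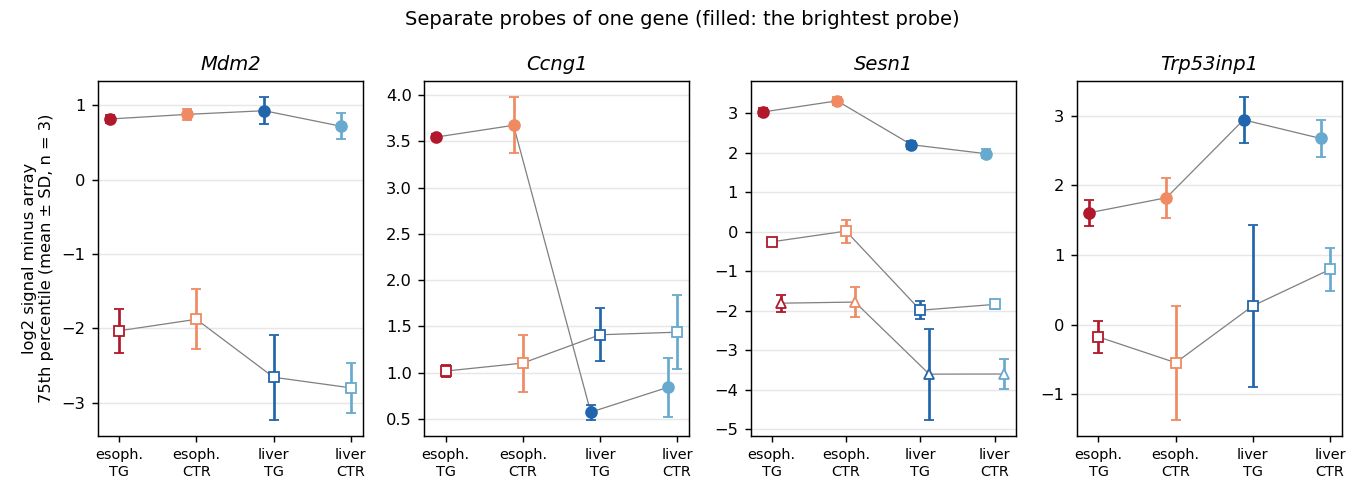
Mean log2 level and SD (n = 3) of each probe of the 4 genes with more than 1 probe, by group; filled symbols are the brightest probe, which stands for the gene. The probes of Ccng1 cross between the organs, the dimmer probe of Mdm2 is lower in the liver, and the 3 probes of Sesn1 are all lower in the liver.

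The sestrins hold back growth signalling by mTOR when cells are stressed or short of amino acids, and the pair went opposite ways between the organs. Sesn1 had log2 levels of 3.14, 2.95 and 3.02 in TG esophagi, against 3.24, 3.29 and 3.43 in CTR esophagi. Among livers, TG mice had 2.10, 2.26 and 2.27, against 2.04, 1.85 and 2.06 in CTR livers. The groups did not overlap in either organ, with TG below CTR in the esophagus and above it in the liver. The differences were small: -0.28 in the esophagus (SE 0.14, 95% interval -0.60 to 0.03, adjusted p = 0.9999 by limma) and 0.23 in the liver (SE 0.14, -0.09 to 0.54, adjusted p = 0.676). On the 2 other probes of Sesn1 the differences were -0.27 and -0.03 in the esophagus and -0.15 and -0.00 in the liver. Between the organs Sesn1 was higher in the esophagus by 0.83 in TG mice (SE 0.14, adjusted p = 0.000473) and by 1.34 in CTR mice (SE 0.14, adjusted p = 1.47e-05). Its other probes gave 1.73 and 1.80 in TG mice and 1.86 and 1.82 in CTR mice, and all of them passed.

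Sesn2, the sestrin that also answers to nutrient stress, had log2 levels of 0.22, 0.63 and 0.01 in TG esophagi, against 0.11, 0.17 and 0.61 in CTR esophagi. In TG livers they were 1.69, 1.82 and 1.84, against 1.70, 1.40 and 1.56 in CTR livers. Every liver lay above every esophagus and the genotypes overlapped in both organs. TG differed from CTR by -0.01 in the esophagus (SE 0.20, 95% interval -0.46 to 0.44) and by 0.23 in the liver (SE 0.20, -0.22 to 0.68). Sesn2 was lower in the esophagus, by 2.83-fold in TG mice (log2 difference -1.50, SE 0.20, limma adjusted p = 9.09e-05) and by 2.39-fold in CTR mice (-1.26, SE 0.20, adjusted p = 0.000311).

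Trp53inp1 encodes a stress protein that promotes p53-driven cell death and autophagy. It had log2 levels of 1.63, 1.78 and 1.41 in TG esophagi, against 1.68, 1.63 and 2.15 in CTR esophagi. The TG livers had levels of 3.31, 2.80 and 2.71, against 2.41, 2.95 and 2.65 in CTR livers. The organs did not overlap and the genotypes did. TG differed from CTR by -0.22 in the esophagus (SE 0.23, 95% interval -0.72 to 0.29) and by 0.27 in the liver (SE 0.23, -0.24 to 0.78), and on the second probe the signs were turned, at 0.37 in the esophagus and -0.52 in the liver. The esophagus was lower than the liver by 1.33 on the log2 scale in TG mice (limma adjusted p = 0.000509) and by 0.85 in CTR mice (adjusted p = 0.00814). The second probe did not pass, at -0.45 in TG mice (adjusted p = 0.493) and -1.34 in CTR mice (adjusted p = 0.0533). In CTR mice the call of the brighter probe was lost with normexp background correction, at -0.56 (adjusted p = 0.0603), and on the authors' deposited table, at -0.55 (adjusted p = 0.0608).

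Phlda3, a small protein that competes with the kinase Akt for membrane lipids, set the organs apart most among the members. It had log2 levels of 5.89, 5.79 and 5.93 in TG esophagi, against 5.83, 6.06 and 6.20 in CTR esophagi. Among livers, TG mice had -1.16, -0.86 and -0.77, against -0.81, -0.49 and -0.65 in CTR livers. No liver came near any esophagus, while TG and CTR overlapped. Phlda3 was 112-fold higher in the esophagus in TG mice (log2 difference 6.80, SE 0.17, limma adjusted p = 2.83e-10) and 103-fold higher in CTR mice (6.68, SE 0.17, adjusted p = 3.25e-10). TG minus CTR was -0.16 in the esophagus (SE 0.17, 95% interval -0.54 to 0.21) and -0.28 in the liver (SE 0.17, -0.66 to 0.09).

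Perp encodes a membrane protein of desmosomes, the junctions that hold keratinocytes together, and is known as a target of p63 as well as p53. It had log2 levels of 7.76, 7.51 and 7.56 in TG esophagi, against 7.23, 7.65 and 7.75 in CTR esophagi. In TG livers they were 4.85, 4.60 and 5.11, against 4.02, 5.42 and 4.78 in CTR livers. The organs were separate in both genotypes. Perp was 6.77-fold higher in the esophagus in TG mice (log2 difference 2.76, SE 0.31, limma adjusted p = 2.69e-05) and 6.98-fold higher in CTR mice (2.80, SE 0.31, adjusted p = 2.33e-05). TG minus CTR was 0.07 in the esophagus (SE 0.31, 95% interval -0.63 to 0.77) and 0.11 in the liver (SE 0.31, -0.58 to 0.81).

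Bax, the protein that forms pores in the mitochondrial outer membrane during apoptosis, had log2 levels of 1.34, 1.30 and 1.36 in TG esophagi, against 1.03, 1.26 and 0.69 in CTR esophagi. The TG livers had levels of 1.63, 1.68 and 1.36, against 1.62, 1.28 and 1.37 in CTR livers. The TG esophagi lay close together and just above the CTR esophagi, whose spread was wider. TG exceeded CTR by 0.34 in the esophagus (SE 0.18, 95% interval -0.07 to 0.74, unadjusted p = 0.0954 and adjusted p = 0.9999 by limma) and by 0.14 in the liver (SE 0.18, -0.27 to 0.54). Between esophagus TG replicate 1 and esophagus CTR replicate 2, which shared a slide, Bax differed by 0.07. Esophagus minus liver was -0.23 in TG mice (adjusted p = 0.298) and -0.43 in CTR mice (adjusted p = 0.0639), and it passed in CTR mice without esophagus CTR replicate 2, at -0.56 (adjusted p = 0.0305).

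Bbc3 and Pmaip1 encode Puma and Noxa, which bind the survival proteins of the Bcl-2 family and so free Bax. Bbc3 had log2 levels of 0.92, 0.85 and 0.71 in TG esophagi, against 0.94, 0.42 and 1.27 in CTR esophagi. Among livers, TG mice had 1.69, 1.96 and 2.59, against 2.32, 2.17 and 1.74 in CTR livers. Bbc3 was lower in every esophagus than in every liver. The esophagus was 2.39-fold lower in TG mice (log2 difference -1.26, SE 0.28, limma adjusted p = 0.00290) and 2.30-fold lower in CTR mice (-1.20, SE 0.28, adjusted p = 0.00370). TG minus CTR was -0.05 in the esophagus (95% interval -0.68 to 0.58) and 0.00 in the liver (-0.63 to 0.63).

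Pmaip1 was the member with the widest spread between mice. Its log2 levels were -2.60, -1.11 and -1.97 in TG esophagi, against -1.43, -1.03 and -1.21 in CTR esophagi. In TG livers they were -3.10, -2.07 and -2.85, against -2.89, -3.35 and -1.87 in CTR livers. Only the CTR esophagi stood clear of the livers of their genotype. TG minus CTR was -0.67 in the esophagus (SE 0.45, 95% interval -1.67 to 0.34) and 0.03 in the liver (SE 0.45, -0.97 to 1.04). The esophagus value was -0.31 without esophagus TG replicate 1 and -1.06 without esophagus TG replicate 2. Esophagus minus liver was 0.78 in TG mice (SE 0.45, limma adjusted p = 0.155) and 1.48 in CTR mice (SE 0.45, adjusted p = 0.0157). The CTR call was lost without esophagus CTR replicate 2, at 1.38 (adjusted p = 0.0510), and without liver CTR replicate 2, at 1.15 (adjusted p = 0.0647).

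Across the 10 members, the organ differences ran both ways. In TG mice 4 of 10 were higher in the esophagus, where 24.3% of all genes were, and 3 of 10 lower, where 38.8% were. In CTR mice 5 of 10 were higher (27.7% of all genes) and 3 of 10 lower (34.5%). The median difference of the members was 0.33 in TG and 0.75 in CTR mice, against -0.36 in TG and -0.14 in CTR mice over all genes tested. The median over all genes moves with the scaling, to -0.08 in TG and -0.04 in CTR mice after quantile normalization, so organ differences are relative to it. Of the genes that passed in TG mice 38.5% were higher in the esophagus, and 48.8% on the authors' deposited table. Pmaip1 was called in CTR and not in TG mice, but its genotype difference between the organs did not pass (-0.70, SE 0.64, adjusted p = 0.944).

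**Figure D4:**
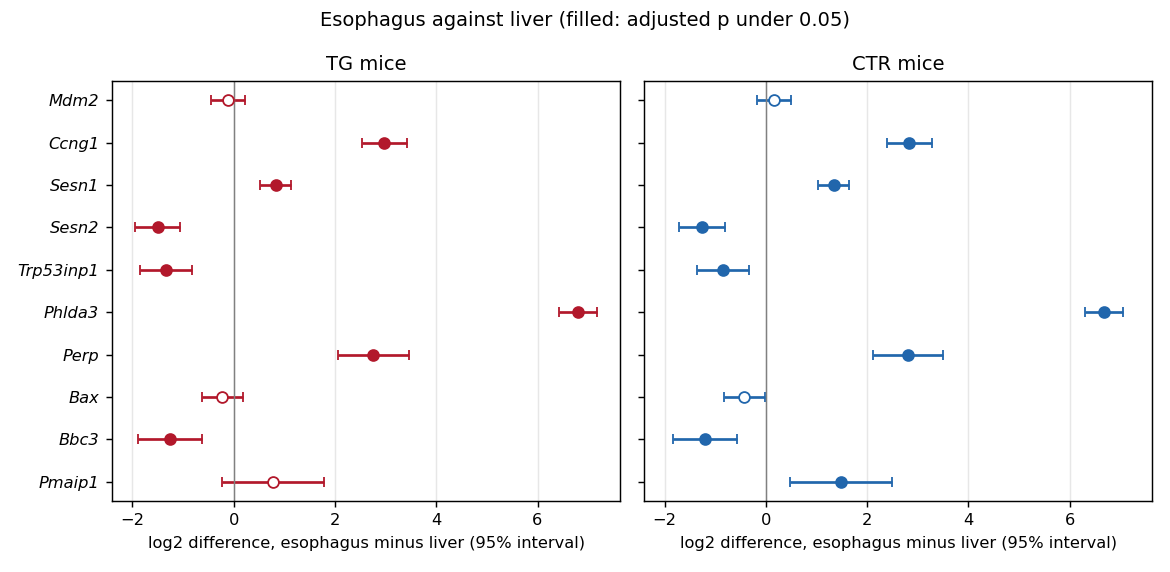
Difference between esophagus and liver for each of the 10 genes in TG mice (left) and CTR mice (right), on the log2 scale, with 95% intervals from the limma fit and 3 mice per group; filled symbols passed an adjusted p under 0.05. The order of the genes is alike in both genotypes, with Phlda3 at 6.80 in TG and 6.68 in CTR mice and Sesn2 at -1.50 in TG and -1.26 in CTR mice.

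The test of whether the genotype difference differed between organs passed for 0 of 10 members and for 0% of 24438 genes, with 1216 genes at an unadjusted p under 0.05. The members' values ran from -0.70 (Pmaip1) to 0.20 (Bax), 3 of them positive and 7 negative, with a median of -0.15, against -0.15 over all genes. Sesn1 was the 1 member at an unadjusted p under 0.05 (-0.51, SE 0.20, unadjusted p = 0.0281, adjusted p = 0.943 by limma).

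Trp53, its relatives Trp63 and Trp73 and genes that act on p53 form 1 list, of which none passed between genotypes (0 of 9 tested in the esophagus and 0 of 8 in the liver). Trp53 had a mean log2 level of 0.51 ± 0.19 in TG esophagi and 0.84 ± 0.31 in CTR esophagi, and of 0.59 ± 0.18 in TG livers and 0.95 ± 0.07 in CTR livers (SD, n = 3). Its TG minus CTR difference was -0.33 in the esophagus (SE 0.19, limma adjusted p = 0.9999) and -0.37 in the liver (SE 0.19, adjusted p = 0.661). The TG livers lay below the CTR livers without overlap, as they did for 2.87% of all genes tested. On its second probe the TG means were the higher ones, at -2.16 in TG and -2.40 in CTR esophagi and at -1.71 in TG and -2.14 in CTR livers. On the brighter probe esophagus minus liver was -0.07 in TG and -0.11 in CTR mice. Of the 9 genes of this list tested, relatives included, 2 were higher and 2 lower in the esophagus in each genotype. Over all genes these shares were 24.3% and 38.8% in TG mice and 27.7% and 34.5% in CTR mice. Trp63, the p53 relative of stratified epithelia, was at least 324-fold higher in the esophagus in TG mice and at least 298-fold higher in CTR mice, since it was not well above background in any liver. Each such bound sets the esophagus mean against the lowest detectable signal of each liver array, or against the probe's own signal there where that was higher. Ppm1d, a phosphatase that switches p53 signalling off, was higher in the esophagus by 2.01 in TG and 1.76 in CTR mice. Mdm4, the partner of Mdm2, was at -1.52 in TG and -1.13 in CTR mice, and Trp73 at -1.76 in TG and -2.11 in CTR mice, both lower in the esophagus.

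Of 27 other p53 targets 26 were tested and 0 passed between genotypes in either organ. The smallest p values in the esophagus were those of Rps27l (0.44 on the log2 scale, SE 0.22), Psrc1 (1.19, SE 0.61) and Xpc (-0.34, SE 0.20), all at an adjusted p of 0.9999 by limma. Cdkn1a, the cell cycle inhibitor p21, had log2 levels of 2.77, 2.39 and 2.75 in TG esophagi, against 2.46, 2.50 and 2.05 in CTR esophagi. The TG livers had levels of -4.17, -1.69 and -3.23, against -1.82, -1.12 and -2.25 in CTR livers, which overlap. Its difference was 0.30 in the esophagus (SE 0.52) and -1.30 in the liver (SE 0.52, unadjusted p = 0.0313, adjusted p = 0.650). The level of -4.17 in liver TG replicate 1 lay below -3.97, the common floor for dim values used as an alternative. In the liver Ak1 (0.44, SE 0.21) and Psrc1 (1.23, SE 0.61) came next. Between the organs 10 of 26 were higher in the esophagus and 6 lower in TG mice, where 24.3% and 38.8% of all genes were. In CTR mice 9 of 26 were higher and 6 lower, where 27.7% and 34.5% of all genes were. Those with the smallest p values were Ak1 (7.85 in TG and 8.51 in CTR mice), an adenylate kinase abundant in muscle, Btg2 (2.91 in TG, 2.79 in CTR), Sfn (2.85 in TG, 2.19 in CTR), a 14-3-3 protein of keratinocytes, and Zmat3 (1.73 in TG, 1.50 in CTR). Gdf15 (-3.33 in TG, -2.95 in CTR), Rps27l (-2.24 in TG, -2.39 in CTR), Fas (-2.06 in TG, -2.13 in CTR) and Fdxr (-2.04 in TG, -2.02 in CTR) were lower in the esophagus. Cdkn1a was higher by 5.67 in TG and 4.06 in CTR mice, with the TG value resting in part on that dim liver array.

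Around the apoptosis members, 10 of 11 Bcl-2 family genes on the array were tested and 0 passed between genotypes. The smallest p values were those of Bcl2l2 (-0.23), Bik (0.27) and Bak1 (-0.19) in the esophagus, and of Bcl2l11 (0.42), Mcl1 (0.29) and Bcl2l1 (-0.25) in the liver. Between the organs 2 of 10 were higher in the esophagus and 3 lower in TG mice (24.3% and 38.8% of all genes), and 3 of 10 were higher and 4 lower in CTR mice (27.7% and 34.5%). Bmf, which couples the cytoskeleton to cell death, was lower in the esophagus by 5.42 in TG and 5.31 in CTR mice. Bid was lower by 1.40 in both genotypes and Bik by 1.64 in TG and 1.72 in CTR mice. Bcl2, the founding survival protein, was higher by 1.71 in TG and 1.67 in CTR mice. Bcl2l1 (0.45) passed in TG mice, and Bad (-0.74), Bcl2l2 (0.49) and Mcl1 (0.42) passed in CTR mice, while the test of the difference between genotypes passed for 0 of 10.

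Around the sestrins, 9 of 10 genes of the sestrin and GATOR list were tested and 0 passed between genotypes. In the esophagus Nprl2 (0.40), Ddit4 (-0.69) and Seh1l (0.32) had the smallest p values, and in the liver Sec13 (-0.54), Mios (0.29) and Seh1l (0.31). Between the organs 1 of 9 was higher in the esophagus and 2 lower in TG mice (24.3% and 38.8% of all genes), and 2 of 9 were higher and 5 lower in CTR mice (27.7% and 34.5%). Sesn3, the remaining sestrin, was higher in the esophagus by 1.23 in TG and 1.25 in CTR mice, as was Sesn1. Seh1l was lower by 0.74 in TG and 0.75 in CTR mice, and Nprl3 by 0.63 in TG and 1.02 in CTR mice. In CTR mice Nprl2 (-0.70) and Sec13 (-0.72) were also lower and Ddit4 (0.94), an mTOR inhibitor, higher.

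Around Perp, 9 of 11 desmosome partners were on the array, and between the organs all 9 passed in both genotypes, 7 higher and 2 lower in the esophagus. Over all genes 24.3% were higher and 38.8% lower in TG mice, and 27.7% higher and 34.5% lower in CTR mice. Pkp1, a plakophilin of squamous epithelium, was higher by 10.4 in TG and 11.0 in CTR mice, Pkp3 by 7.02 in TG and 6.92 in CTR mice, and Jup by 4.68 in TG and 4.21 in CTR mice. Dsg3, the desmoglein of basal keratinocytes, was higher by 3.95 in TG mice and at least 23.3-fold higher in CTR mice. Pkp2 (-3.40 in TG, -2.99 in CTR) and Dsg2 (-3.00 in TG, -2.98 in CTR), the forms of simple epithelium and heart, were lower in the esophagus. Between genotypes 0 of 9 passed in the esophagus and 0 of 6 in the liver. The smallest p values were those of Pkp2 (-0.68), Dsg2 (0.36) and Dsc2 (0.36) in the esophagus, and of Jup (-0.47), Pkp1 (0.49) and Dsg2 (0.38) in the liver.

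Col1a1, the locus that holds the transgene, differed between TG and CTR by -0.11 in the esophagus (SE 0.42) and 0.65 in the liver (SE 0.42). Over the 12 arrays and 10971 other genes that were well above background on all of them, the patterns most like that of Mdm2 were those of Slx4 (Pearson r 0.907), Arid4b (0.804) and Sall2 (0.804). Those most like Ccng1 were Rab3d (0.995), Trim54 (0.995) and Usp20 (0.994), and those most like Perp were Fibin (0.994), Pmm1 (0.993) and Ldb3 (0.992). The values for Ccng1 and Perp rest on arrays that fall into 2 organs, and these correlations are a description of the 12 arrays.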

How the data were processed

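The deposited scanner files, 1 for each of 12 arrays, give linear spot intensity; per the file headers they come from Agilent Feature Extraction 10.7.1.1 on array design 14868, background-subtracted within each array. A table of log2 values deposited by the authors (column medians 7.27) matched normexp correction with quantile normalization when set against the scanner values; the submitters' processing notes name limma. It is uncentred, has 1 channel and served as an alternative. Main values were log2 intensity minus the 75th percentile of each array. Outlier spots (1311) were left out, spots of a probe averaged, and genes with several probes represented by the brightest. Names came from RefSeq accessions (23374 probes matched, 17800 kept their own identifiers). Probes without a match count as genes in the tests and in the shares of all genes. Genes were tested where 1 group of a contrast or both had all 3 arrays above background, with limma 3.58.1 (R 4.3.3), 4 group means, 8 residual degrees of freedom and Benjamini-Hochberg adjustment at 0.05. The method was tested on simulated data. The files hold no mean signals, so normexp (offset 50) used median signals.

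Members and lists were chosen with earlier results of these data known. Named genes were all members, Trp53, Mdm4, Cdkn1a, Trp63, Nanog and Col1a1, per list the 3 with the smallest p between genotypes and up to 4 per direction between organs, and 3 genes like Mdm2, Ccng1 and Perp. Esophagus and liver of a mouse are paired by the animal numbers in the labels; correlations of their deviations were -0.04 to 0.22. Slides (5) served as blocks. Within an organ, TG and CTR arrays shared only slide 3 (esophagus) or slide 1 (liver). Slide and genotype can therefore only partly be told apart. Alternatives were other scalings, filters, probe rules, blocks, array weights and leaving out each array.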

Additional observations from a re-analysis of the deposited data

Results flagged for a closer look

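Sesn1 was the member in which every TG esophagus lay below every CTR esophagus and every TG liver above every CTR liver, on its brightest probe. Of all genes tested, 6.13% lay so in the esophagus and 8.42% in the liver. The share of genes with both patterns together was not counted. Sesn1 was flagged by this separation, so the interval below comes from the values that picked it and is no separate test. The difference of the TG minus CTR differences, esophagus minus liver, was -0.51 on the log2 scale (SE 0.20, 95% interval -0.95 to -0.07), and it did not pass in the fit over all genes (adjusted p = 0.943 by limma). The 2 other probes of Sesn1 gave -0.12 and -0.02.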

How the results depend on the processing

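No member passed between TG and CTR mice, or in the difference between organs, under any of the alternatives or with any array left out. In the esophagus against the liver 7 members were called in TG mice under every alternative, and 7 to 9 in CTR mice, where Bax was gained with a common floor for dim values, with the filter on all 12 arrays and without esophagus CTR replicate 2, and Mdm2 with every probe counted. With every probe counted, a gene was called where any of its probes passed, and its value was the mean over its probes. Ccng1 and Trp53inp1 were called there in both genotypes on their brighter probes alone. Mdm2 was called in CTR mice on its dimmer probe alone. The cause of the changes below was not tested. Genes called in TG against CTR esophagi numbered 0 and became 1 after quantile normalization over 12 arrays or within each organ, with slide as a fixed block, with only the 6 arrays of the contrast and with array weights, and 2 with normexp and quantile normalization, on the authors' deposited table and with the common floor. Leaving out an array gave 0 to 7 (7 without esophagus TG replicate 2), in the liver also 0 to 7 (7 without liver TG replicate 2), and 0 to 1 for the difference between organs, which had 1 gene after quantile normalization, with normexp, on the authors' table and with the common floor.

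The members' median for the esophagus against the liver in TG mice was 0.33 on the log2 scale; it was 0.53 after quantile normalization, 0.49 with arrays centred on their median, 0.52 with every probe, 0.044 with slide as a fixed block, 0.19 with array weights and 0.13 to 0.37 with an array left out. Their liver TG minus CTR median was 0.26 with slide as a fixed block. Their median difference between organs was -0.28 to -0.018 with an array left out.

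Uncalled values changed sign as follows, where those with every probe are means over the probes of a gene. In TG against CTR livers Pmaip1 was -0.37 with quantile normalization over 12 arrays, -0.35 within each organ, -0.0029 with arrays centred on their median, -0.011 with normexp and -0.00820 on the authors' table. Bbc3 there was -0.033 with centred arrays and -0.029 with array weights, Perp -0.022 with normexp, -0.023 on the authors' table and -0.18 with array weights, Bax -0.019 with slide as a fixed block and Trp53inp1 -0.13 with every probe. In TG against CTR esophagi Bbc3 was 0.023 with normexp, 0.024 on the authors' table, 0.39 with slide as a fixed block and 0.0040 as a random block. Ccng1 was 0.0047 and Sesn2 0.063 with slide as a fixed block, and Trp53inp1 0.077 with every probe. Mdm2 in the esophagus against the liver of TG mice was 0.049 with centred arrays and 0.26 with every probe. In the difference between organs Ccng1 was -0.039 and -0.038, Bbc3 0.014 and 0.016, Phlda3 -0.016 and -0.012, and Perp 0.11 and 0.11 with normexp and on the authors' table. Bbc3 was 0.071 and Perp 0.11 with slide as a fixed block, Bbc3 0.0040 and Perp 0.27 with array weights, and Trp53inp1 0.20 with every probe.

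With an array left out, TG minus CTR in the esophagus ran from -0.18 to 0.14 for Sesn2, -1.06 to -0.31 for Pmaip1, -0.089 to 0.17 for Perp, -0.28 to 0.15 for Bbc3 and -0.24 to 0.045 for Ccng1. In the liver it ran from -0.29 to 0.45 for Pmaip1, -0.25 to 0.20 for Bbc3 and -0.25 to 0.45 for Perp. The difference between organs ran from -0.38 to 0.32 for Perp, -0.28 to 0.21 for Bbc3 and -0.035 to 0.31 for Ccng1. Within a slide, TG minus CTR had a median of -0.011 in the esophagus (1 array each) and 0.16 in the liver; Bbc3 (0.50) and Sesn2 (0.052) in the esophagus and Trp53inp1 (-0.24) and Perp (-0.31) in the liver had the sign turned there, Pmaip1 was -1.57 in the esophagus, and Ccng1 was -0.71 and Sesn1 0.42 in the liver. The replicate block on the animal left 7 members called in TG and 8 in CTR mice, and with the replicate number as a block 0 members passed between genotypes, so the pairing changed no count of members. Same-numbered TG and CTR samples share only a number, with correlations of deviations from -0.48 to 0.19.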
